A study of Zea mays with 9 samples.

Results

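The maize cystatin genes psei1 and cpi2 are 2 of 967 genes that could be named on the array, and were read by 6 of its 17621 probe sets other than controls, 2 annotated to psei1 and 4 to cpi2. On this Affymetrix array, several short probes against a transcript form a probe set and together yield 1 signal. The members were taken by annotation, as every probe set whose gene identifier carries the name psei1 or cpi2 in the RefSeq gene table. The pair of genes was itself chosen by measured values, since psei1 was already known to be among the genes with the lowest values in sh1 relative to B73 in these arrays. Levels and differences of both genes between the lines are therefore given as a description, with no test.

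RNA of maize endosperm, the storage tissue of the kernel, was measured 15 days after pollination in 3 field-grown lines, with 3 replicate arrays per line that are named biological. The lines are ae wx, whose name is that of the starch synthesis loci amylose extender and waxy, sh1, whose name is that of the sucrose synthase locus shrunken1, and B73, the inbred line behind the maize reference genome. The labels give no allele and no relation between the mutant lines and B73, so a named locus cannot be told apart from any other difference between the lines, and p-values measure only the spread between these samples, since it is not said whether they came from separate ears. No other treatment is given for any line.

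Cystatins are small proteins that bind in the active site of papain-like cysteine proteinases and block them. In cereal grains their targets include the proteinases that break down storage protein, and plant cystatins are also known as inhibitors of digestive proteinases of insects. The RefSeq table gives psei1 the further name Cystatin-1 and cpi2 the names Cystatin2 and psei2. No sequence of either gene was used here, so none is shown.

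All 6 probe set identifiers share the stem Zm.14272, and their endings tell how the probes were designed. Zm.14272.2.A1_at of psei1 and Zm.14272.3.S1_at and Zm.14272.3.A1_at of cpi2 end in _at, the ending for probes matched to 1 transcript. Zm.14272.2.A1_a_at of psei1 ends in _a_at, given where probes match several transcripts of a gene. Zm.14272.4.S1_x_at and Zm.14272.5.S1_x_at of cpi2 end in _x_at, given where some probes also match other sequences. Signals of the _x_at sets can therefore hold transcript of related copies, and that of the _a_at set several transcripts of its gene. Both kinds are called sets with shared probes below. The members are not independent measurements.

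Of the 6 probe sets, 5 were highest in ae wx, intermediate in B73 and lowest in sh1, and the sixth was dim in every array. The order held array by array: for each of these 5, every ae wx array was above every B73 array and every B73 array above every sh1 array. Among all 12414 probe sets kept after a filter on dim signal, 2.11% had that order. Those figures are a description, because the members were taken up with the sh1 and B73 values known.

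The probe set Zm.14272.2.A1_at of psei1 had the brightest signal of that gene in all 3 lines. It read 6682, 6668 and 6797 in the ae wx arrays, 562, 631 and 593 in the sh1 arrays, and 3472, 5160 and 4220 in the B73 arrays. The ae wx arrays lay within 1.02-fold of each other, the sh1 arrays within 1.12-fold, and the B73 arrays spread over 1.49-fold, with replicate 1 lowest. Means were 6716 ± 71.1 in ae wx, 596 ± 34.2 in sh1 and 4284 ± 846 in B73 (SD, n = 3 each).

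The other psei1 probe set, Zm.14272.2.A1_a_at, gave the same order with smaller distances between sh1 and the other lines. Its signals were 3980, 4088 and 3985 in ae wx, 485, 447 and 436 in sh1, and 1563, 2339 and 2175 in B73. No arrays of different lines overlapped, and B73 replicate 1 was again the lowest of its line. Means were 4018 ± 60.9 in ae wx, 456 ± 25.6 in sh1 and 2026 ± 409 in B73 (SD, n = 3 each).

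Of the cpi2 probe sets, Zm.14272.5.S1_x_at was the brightest. Its signal was 2556, 2632 and 2572 in ae wx, 341, 323 and 297 in sh1, and 1069, 1481 and 1451 in B73. Zm.14272.4.S1_x_at had signals of 2411, 2448 and 2440 in ae wx, 324, 297 and 284 in sh1, and 844, 1344 and 1258 in B73. Both _x_at sets followed the psei1 pattern with no overlap between lines, and in both B73 replicate 1 was the lowest B73 array.

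Zm.14272.3.S1_at, the cpi2 probe set with probes for 1 transcript that could be measured, was much dimmer. Its arrays had 383, 403 and 344 in ae wx, 69.8, 88.6 and 85.8 in sh1, and 208, 285 and 275 in B73. The ae wx and B73 arrays were all above background, set here at the mean plus 2 SD of 23 control probe sets with no maize target (100.4 to 141 across arrays). None of the sh1 arrays was, so only a bound can be given there.

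Zm.14272.3.A1_at, whose identifier differs from that of Zm.14272.3.S1_at only in A1 for S1, lay between 75.7 and 88.2 in all 9 arrays. It was not above background in any array, did not pass the filter, and gives no order of the lines. Of the 5 members that passed the filter, Zm.14272.3.S1_at did so through its 6 ae wx and B73 arrays alone, and the other 4 in all 9 arrays.

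**Figure D1:**
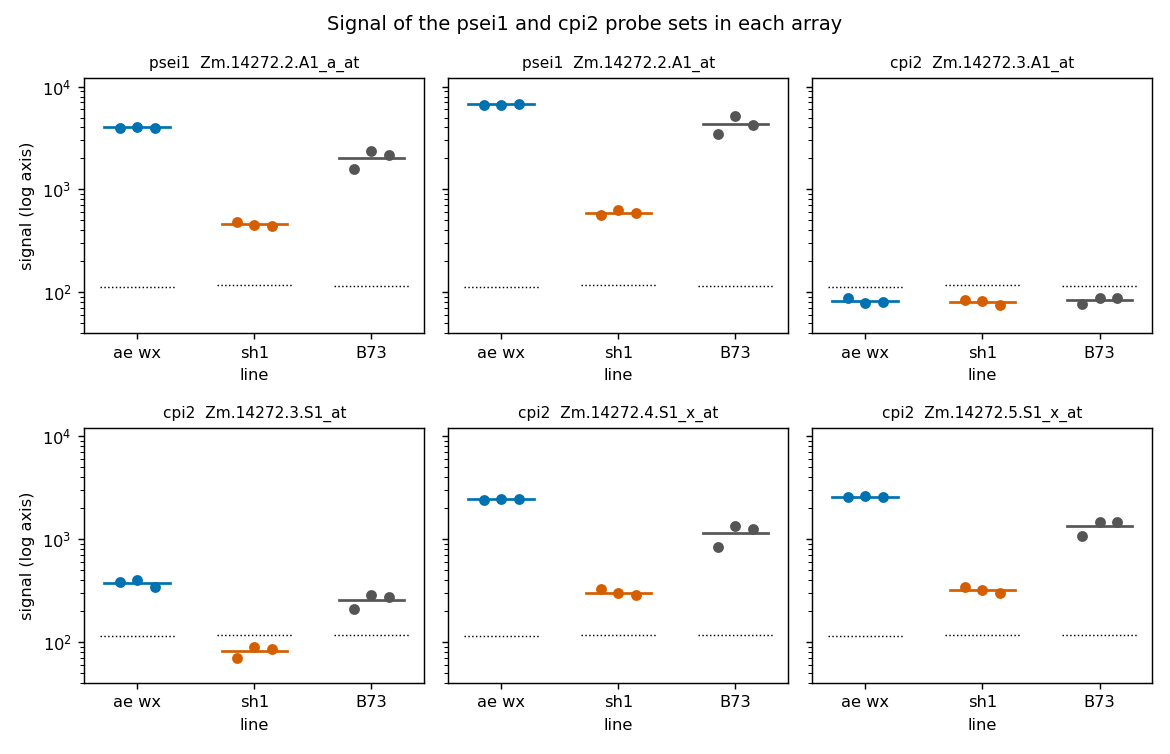
Signal (log axis) of each psei1 and cpi2 probe set in the 3 arrays of ae wx, sh1 and B73; points are arrays, solid bars line means, and dotted bars the line's mean background level from controls with no maize target. In 5 of the 6 panels the ae wx points are highest and the sh1 points lowest, while Zm.14272.3.A1_at lies between 75.7 and 88.2 in every array.

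In ae wx, both genes had more signal than in B73. All 5 members that passed the filter were higher in ae wx with no overlap of arrays, and 32.6% of all probe sets tested were so. On the log2(signal + 16) scale, used for this and every later difference and fold and understating changes of dim probe sets, psei1 was 1.59-fold higher by Zm.14272.2.A1_at (difference 0.67 ± 0.13 SE) and 2.004-fold higher by Zm.14272.2.A1_a_at (1.003 ± 0.14). The cpi2 sets gave 1.45-fold for Zm.14272.3.S1_at (0.54 ± 0.13), 2.14-fold for Zm.14272.4.S1_x_at (1.10 ± 0.16) and 1.95-fold for Zm.14272.5.S1_x_at (0.96 ± 0.13). The median over the 5 was 0.96, beside 0.04 over all 12414 probe sets.

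In this comparison the sets with shared probes had larger differences than the sets with probes for 1 transcript, in both genes. The reason was not tested, and the members are not independent measurements. The sets with probes for 1 transcript, one of each gene, differed between ae wx and B73 by 0.54 and 0.67, and the 3 sets with shared probes by 0.96 to 1.10 (log2). Within each array, the log2 gap of Zm.14272.2.A1_a_at over Zm.14272.2.A1_at was -0.77 to -0.70 in ae wx and -1.14 to -0.95 in B73, a change of 0.34 ± 0.07 (SE, n = 3 each) with no overlap. Between the _at sets of psei1 and cpi2 the gap was 3.995 to 4.24 in ae wx and 3.86 to 4.10 in B73, so these overlapped (change 0.13 ± 0.10).

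In sh1, the probe sets of both genes that passed the filter had less signal than in B73, which is the comparison by which psei1 was taken up. All 5 members that passed the filter were lower in sh1 with no overlap of arrays, which was true of 28.3% of all probe sets tested. The psei1 sets were 6.95-fold lower by Zm.14272.2.A1_at (difference -2.80 ± 0.13 SE) and 4.27-fold lower by Zm.14272.2.A1_a_at (-2.09 ± 0.14). Those of cpi2 were 3.60-fold lower by Zm.14272.4.S1_x_at (-1.85 ± 0.16), 3.98-fold lower by Zm.14272.5.S1_x_at (-1.99 ± 0.13) and at least 2.03-fold lower by Zm.14272.3.S1_at. The _x_at sets can hold transcript of related copies, so for cpi2 alone only the bound is free of shared probes. Of all 12414 probe sets, 77 had a lower difference than Zm.14272.2.A1_at and 204 a lower one than Zm.14272.4.S1_x_at.

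In this comparison the difference of Zm.14272.2.A1_at was larger than that of the 3 sets with shared probes, while for Zm.14272.3.S1_at the bound allows no ranking. The gap of Zm.14272.2.A1_at to Zm.14272.2.A1_a_at in the same array changed by 0.70 ± 0.11 (SE, log2) between sh1 and B73, as Zm.14272.2.A1_a_at minus Zm.14272.2.A1_at, with arrays at -0.48 to -0.21 in sh1 and -1.14 to -0.95 in B73. Between the cpi2 sets Zm.14272.4.S1_x_at and Zm.14272.5.S1_x_at, the gap changed by 0.14 ± 0.06.

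The distances between ae wx and sh1 were the largest of the 3 comparisons for every member that passed the filter. This follows from B73 lying between the other lines. All 5 members that passed the filter were higher in ae wx with no overlap, beside 31.1% of all probe sets tested. The fold for psei1 was 11.0 by Zm.14272.2.A1_at (difference 3.46 ± 0.13 SE) and 8.55 by Zm.14272.2.A1_a_at (3.10 ± 0.14). For cpi2 it was 7.73 by Zm.14272.4.S1_x_at (2.95 ± 0.16), 7.75 by Zm.14272.5.S1_x_at (2.95 ± 0.13), and at least 2.95 by Zm.14272.3.S1_at. Of the 12414 probe sets, 29 had a higher difference than Zm.14272.2.A1_at, a rank that reuses the sh1 values by which psei1 was taken up. The 3 comparisons share arrays with one another, so their values are not independent.

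**Figure D2:**
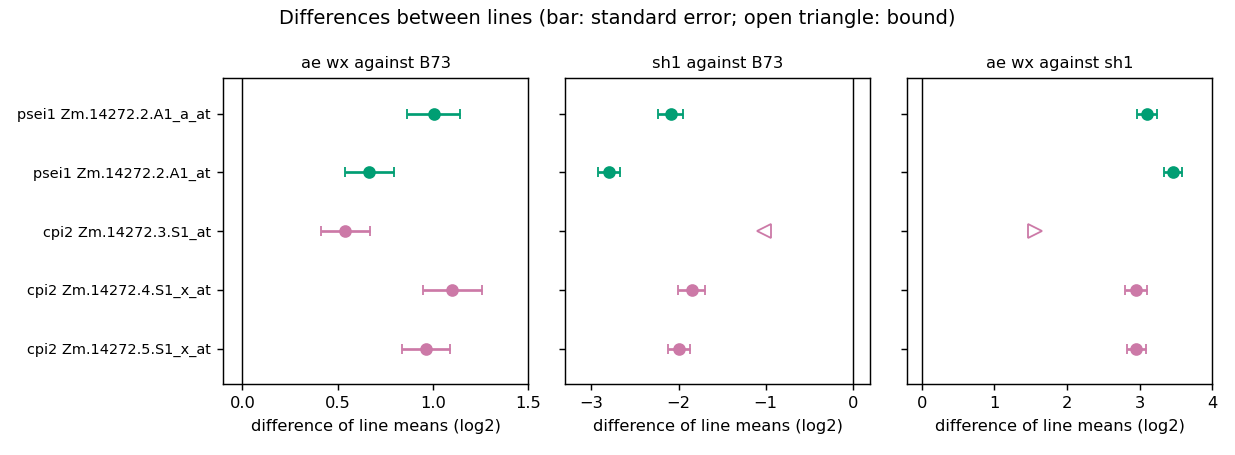
Difference of line means on the log2(signal + 16) scale for the 5 probe sets that passed the filter, with standard errors from the fit; the horizontal scale differs between panels, and open triangles mark bounds where sh1 was not above background. The sets with shared probes lie between 0.96 and 1.10 in ae wx against B73, and of the 4 sets measured on both sides in sh1 against B73, Zm.14272.2.A1_at is lowest at -2.80.

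**Figure D3:**
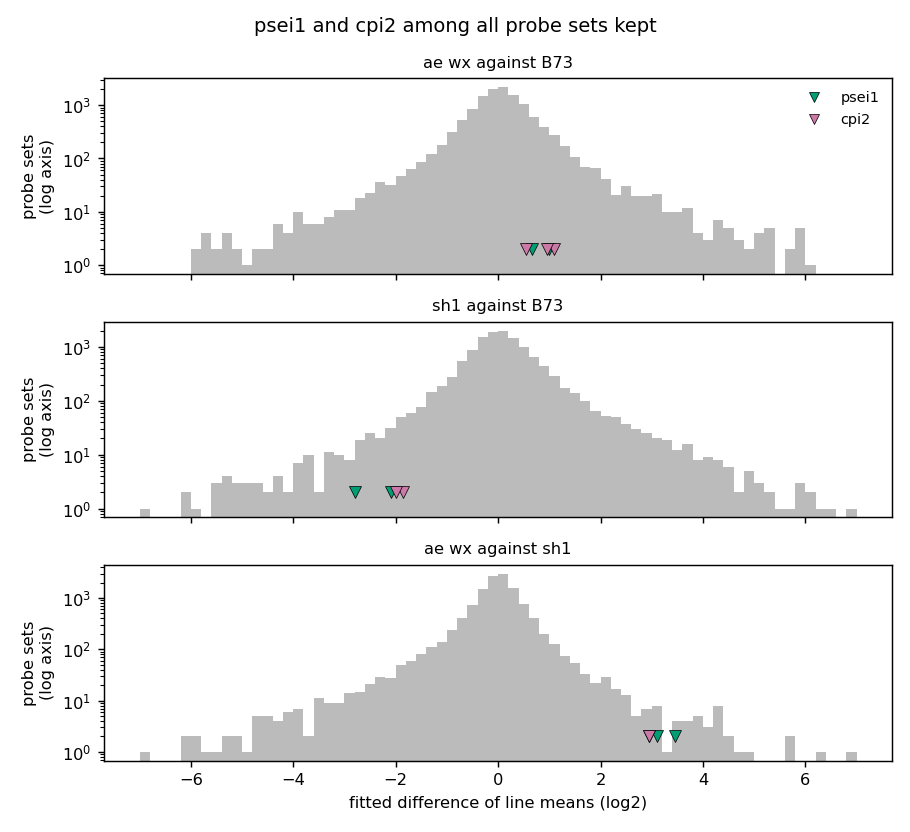
Histograms (log axis) of the differences of all 12414 probe sets in the 3 comparisons, with triangles for the psei1 and cpi2 sets that were measured on both sides. The triangles lie well inside the histogram in ae wx against B73 and in its tail in the comparisons with sh1, where 77 probe sets are below and 29 above Zm.14272.2.A1_at.

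Over the 9 arrays, the sets with shared probes had profiles close to one another across the 2 genes. Likeness was measured as the root mean square difference between log2(signal + 16) profiles, each minus its own mean over the arrays, so 0 is an identical pattern. It was 0.07 between Zm.14272.2.A1_a_at of psei1 and Zm.14272.5.S1_x_at of cpi2, and 0.10 between that psei1 set and Zm.14272.4.S1_x_at. The 2 psei1 sets differed by 0.30 from each other. The most unlike pair was Zm.14272.2.A1_at and Zm.14272.3.S1_at at 0.66, where the low sh1 signals of Zm.14272.3.S1_at limit what can be read.

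In B73 the members, which are not independent measurements, lay on the same side of their line mean in replicates 1 and 2. All 5 were below their B73 mean in replicate 1, by -0.41 to -0.27 (log2), and all 5 above it in replicate 2, by 0.16 to 0.29. Replicate 3 lay between -0.003 and 0.16. The share of all probe sets that departed in the same way was not counted. The 2% trimmed mean of the whole array was also lowest in B73 replicate 1, at 623. It was 651 in B73 replicate 2 and 634 in B73 replicate 3. In ae wx and sh1 no array departed from its line mean by more than -0.18 on the low side or 0.11 on the high side in any member.

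The array and tissue checks gave these values beside the result. Median signal was 241 to 256 across arrays. All 8 endosperm markers on the list set down were present and above background in every line, with a summed signal of 75782 to 81028 in ae wx, 85613 to 86735 in sh1 and 94993 to 97790 in B73. The 5 embryo and aleurone markers on the array summed to 7436 to 8005 in ae wx, 8908 to 10539 in sh1 and 9871 to 13891 in B73. The 4 transfer cell markers summed to 1380 to 4151 in ae wx, 1883 to 3640 in sh1 and 701 to 726 in B73, and the 3 green tissue markers to 305 to 324 in ae wx, 284 to 338 in sh1 and 453 to 1017 in B73. Replicate 1 gave the high transfer cell sums. There meg2 read 2085 in ae wx, against 362 and 383 in replicates 2 and 3, and bap2 read 1080, against 264 and 254. In sh1 both were also highest in replicate 1. The set named MRP1 may belong to another gene of that name. None of the markers on any list was at 0. Not above background in any array of a line were glb2, MRP1, psah1 and ssu1 in ae wx, glb2, EMB5, me3 and ssu1 in sh1, and EMB5, MRP1 and bap2 in B73. No list's summed signal ran in the order of psei1 and cpi2, but a sum can hide markers that run in different directions. Of the endosperm markers, az22z1, read by an _x_at set, did have that order. Its signal was 18378 to 18867 in ae wx, 11264 to 11749 in B73 and 4193 to 5894 in sh1. In ae wx, sh2 was above B73 and wx1 below it. Ratios of 3′ over 5′ signal, a sign of RNA quality, did not differ one way across the 4 control genes. The log2 means were 0.57 in ae wx, 0.60 in sh1 and 0.17 in B73 for actin, 1.499 in ae wx, 1.28 in sh1 and 1.14 in B73 for EF1a, -0.01 in ae wx, 0.48 in sh1 and -0.10 in B73 for GAPDH, and 0.06 in ae wx, 0.02 in sh1 and 0.40 in B73 for cyclophilin. Spikes added at hybridisation averaged 10.5 in ae wx, 10.3 in sh1 and 10.7 in B73 (log2), and polyA spikes 9.03 in ae wx, 8.73 in sh1 and 9.58 in B73. The part of cell makeup, RNA quality and labelling in the differences of psei1 and cpi2 was not tested, and with whole tissue fewer cells of a type and less RNA per cell cannot be told apart.

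The 10 other genes listed were 2 cystatins, 7 cysteine proteinases and the serine proteinase inhibitor gene wip1, and the 8 of them that passed the filter did not share 1 direction. Here a gene was called at a limma adjusted p under 0.05, and the brightest probe set stood for a gene. In ae wx against B73, 3 of the 8 were called higher and 2 lower, where 29.0% and 24.3% of all probe sets were. In sh1 against B73 it was 2 higher and 1 lower, beside 30.4% and 25.4%. In ae wx against sh1 it was 2 higher and 1 lower, beside 17.8% and 18.8%. Of these calls wip1 gave 1 of the higher ones in sh1 against B73 and the lower one in ae wx against sh1. Medians over the 8 were 0.10, -0.01 and 0.00 (log2) in these 3 comparisons, beside 0.04, 0.04 and 0.00 over all probe sets.

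Of the other cystatins, cc7 (cystatin7) was called higher in ae wx than in both other lines, and cc3 (cystatin3) was called lower in ae wx than in B73. The signal of cc7 was 9653, 9826 and 9427 in ae wx, 6185, 6971 and 7111 in sh1, and 5416, 6690 and 5628 in B73. It was 1.63-fold higher in ae wx than in B73 (difference 0.71 ± 0.09 SE, limma adjusted p = 0.000102) and 1.43-fold higher than in sh1 (adjusted p = 0.00125), with no overlap. In sh1 against B73 it was not called (0.20 ± 0.09 SE, adjusted p = 0.0800), and the arrays overlapped; it was called higher in sh1 without sh1 replicate 1 (adjusted p = 0.0419) or B73 replicate 2 (adjusted p = 0.00827). Like psei1 and cpi2, cc7 was thus highest in ae wx, but it was not low in sh1.

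The signal of cc3 was 224, 254 and 276 in ae wx, 276, 270 and 275 in sh1, and 407, 365 and 271 in B73. Its ae wx arrays overlapped those of B73, whose replicate 3 stood apart from the other B73 arrays. The difference of -0.43 ± 0.14 (SE, limma adjusted p = 0.0236) lost its call without ae wx replicate 1 or 2 or without B73 replicate 1 or 2 (-0.44 to -0.31, adjusted p = 0.0566 to 0.0900), and in a fit of these 2 lines alone (adjusted p = 0.0532). In sh1 against B73 it was -0.31 ± 0.14 (adjusted p = 0.0788), and called lower without B73 replicate 3 (adjusted p = 0.00239), after quantile normalization (0.0459) and after median centring (0.0328).

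Among the cysteine proteinases, the enzymes that cystatins inhibit, ccp2 differed most. This gene, also named see1, encodes a papain-type proteinase. Its signal was 1584, 1526 and 1802 in ae wx, 1639, 1626 and 1675 in sh1, and 284, 295 and 311 in B73. The ae wx and sh1 arrays overlapped with each other and lay far above B73. It was 5.28-fold higher in ae wx than in B73 (2.40 ± 0.09 SE, limma adjusted p = 2.4e-08) and 5.32-fold higher in sh1 than in B73 (2.41 ± 0.09, adjusted p = 2.36e-08). Its other probe set gave 3.10-fold and 2.87-fold.

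The legumain-type gene see2b read 66.7, 61.5 and 70.2 in ae wx, 40.8, 36.1 and 36.2 in sh1, and 167, 156 and 127 in B73. It was above background in B73 alone, though not in B73 replicate 3, and passed the filter through its 3 B73 arrays alone, the line where it was high. It was at least 1.29-fold lower in ae wx than in B73 (limma adjusted p = 3.85e-05, and 1.82e-05 with no filter) and at least 1.24-fold lower in sh1 than in B73 (adjusted p = 1.19e-06, and 4.55e-07 with no filter). Its lower calls in the counts above rest on that. It is also 1 of the 2 genes called higher in ae wx than in sh1, where it has no fold because neither line was above background. Its relative see2a, which did not pass the filter, read 119, 124 and 151 in ae wx, 63.7, 59.4 and 66.3 in sh1, and 45.8, 59.2 and 52.1 in B73.

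The probe sets named mir3, a papain-type gene, disagreed. They were taken as a single gene though annotated under different gene identifiers. The brightest, Zm.5987.1.A2_at, read 352, 319 and 339 in ae wx, 286, 278 and 281 in sh1, and 294, 255 and 309 in B73, and its call in ae wx against B73 (0.23 ± 0.09 SE, limma adjusted p = 0.0492) ended under 15 of 18 alternatives. Zm.5987.1.A1_at, annotated under another gene identifier with the same name, read 339, 351 and 293 in ae wx, 84.6, 103 and 99.8 in sh1, and 218, 284 and 211 in B73. That set, which passed the filter through ae wx and B73, had the order of psei1 and cpi2 with no overlap. It was 1.36-fold higher in ae wx than in B73 (adjusted p = 0.0136), and sh1, not above background, was at least 1.89-fold lower than B73. No p-value is given for sh1, since the set passed the filter only through its brighter lines. Calls of Zm.5987.1.A1_at are not in the counts above, where the brightest set stood for mir3. The remaining set, Zm.5987.1.A2_a_at, read 264, 274 and 284 in ae wx, 209, 228 and 236 in sh1, and 203, 187 and 165 in B73. It was called higher in ae wx than in B73 (0.53 ± 0.09 SE, adjusted p = 0.000776) and, unlike Zm.5987.1.A1_at, higher in sh1 than in B73 (0.26 ± 0.09, adjusted p = 0.0317).

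The remaining proteinases gave no call in any comparison. The gene ccp1 read 2096 to 2383 in ae wx, 2170 to 2475 in sh1 and 1874 to 2689 in B73. Signals of mir2 were 147 to 162 in ae wx, 137 to 160 in sh1 and 120 to 190 in B73, and mir1 was too dim to be kept.

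The wound-induced gene wip1, a serine proteinase inhibitor of the Bowman-Birk type, was the 1 other proteinase inhibitor on the array with a name on the list. Signals were 338, 323 and 260 in ae wx, 1084, 2200 and 2478 in sh1, and 145, 270 and 70.9 in B73, whose replicate 3 was not above background. It was lower in ae wx than in sh1 (-2.51 ± 0.41 SE, limma adjusted p = 0.000985) and higher in sh1 than in B73 (3.52 ± 0.41, adjusted p = 6.37e-05). Between ae wx and B73 it was not called (1.02 ± 0.41, adjusted p = 0.0589), was called higher in ae wx without sh1 replicate 1 (adjusted p = 0.0387) or B73 replicate 2 (1.44, adjusted p = 0.0103), and was 0.58 without B73 replicate 3 (adjusted p = 0.176). The line with the least psei1 and cpi2 signal was thus the one with the most wip1 signal.

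**Figure D4:**
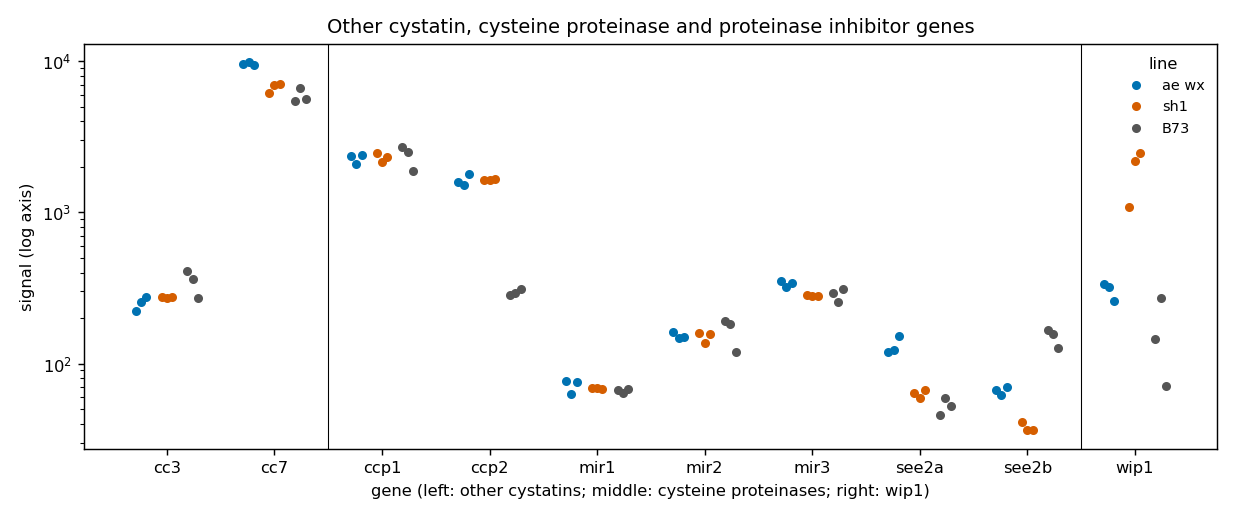
Signal (log axis) of the brightest probe set of each other cystatin, cysteine proteinase and proteinase inhibitor gene, with 1 point per array and the lines ae wx, sh1 and B73 from left to right. The ccp2 points of ae wx and sh1 lie far above those of B73, and wip1 reaches 2478 in sh1.

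Likeness of other profiles to those of psei1 and cpi2 is a description. These profiles hold the sh1 and B73 values by which psei1 was taken up. Of 12409 other probe sets, 19 lay within 0.5 of the psei1 set Zm.14272.2.A1_at and 30 within 0.5 of the cpi2 set Zm.14272.5.S1_x_at. The nearest carried no gene name here. For psei1 it was Zm.4899.1.A1_at at 0.15, with signals of 1462, 1466 and 1396 in ae wx, 135, 147 and 152 in sh1, and 875, 1023 and 1009 in B73. For cpi2 it was Zm.1710.1.S1_at at 0.16, with 2170, 2128 and 2115 in ae wx, 365, 337 and 319 in sh1, and 881, 1408 and 1355 in B73. In that set B73 replicate 1 was the lowest B73 array too.

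Of 737 named genes, the 5 most like psei1 were sh1 (0.36), BCH2 (0.39), az22z1 (0.75), acco20 (0.80) and mir3 by Zm.5987.1.A1_at (0.83). The sucrose synthase gene sh1, at which the sh1 line is named, averaged 15986 in ae wx, 1832 in sh1 and 17471 in B73, so it lacked the step between ae wx and B73. BCH2, a beta-carotene hydroxylase gene, averaged 8730 ± 258 in ae wx, 523 ± 8.95 in sh1 and 6742 ± 430 in B73 (SD, n = 3 each) and had the full order of psei1. The gene acco20, of ethylene synthesis, was highest in B73, at 324 in ae wx, 84.3 in sh1 and 608 in B73, with sh1 not above background.

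The 5 named genes most like cpi2 were az22z1 (0.45), mir3 by the same probe set (0.57), sh1 (0.58), PEAMT (0.63) and TPT (0.68). The alpha zein storage protein gene az22z1, also on the endosperm marker list, averaged 18608 ± 246 in ae wx, 4840 ± 920.3 in sh1 and 11507 ± 242 in B73 (SD, n = 3 each), again in the order of cpi2. Its probe set, Zm.17270.1.S1_x_at, ends in _x_at, so that signal can hold transcript of related sequences. PEAMT, a phosphoethanolamine methyltransferase gene of choline synthesis, averaged 1261 in ae wx, 274 in sh1 and 393 in B73. TPT averaged 200.2 in ae wx, 48.4 in sh1 and 70.2 in B73, and was above background in ae wx alone. The 2 sets of 5 shared az22z1, mir3 and sh1.

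**Figure D5:**
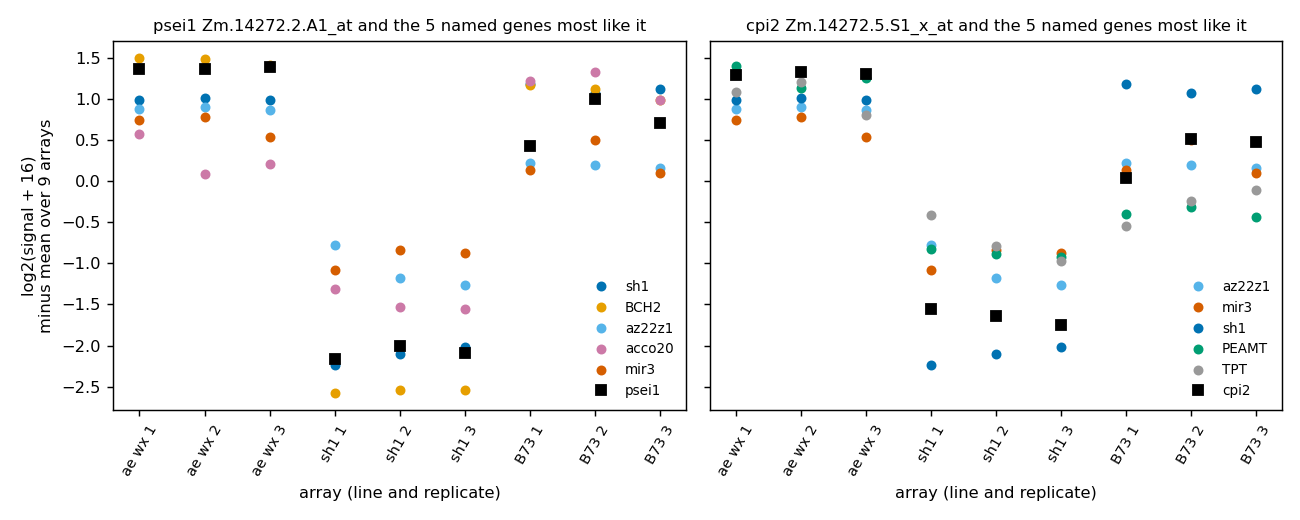
Profiles over the 9 arrays, as log2(signal + 16) minus the mean over arrays, of psei1 and of cpi2 (black squares) and of the 5 named genes most like each (coloured points). All plotted genes are lowest in sh1 on the psei1 side, while the genes sh1, BCH2 and acco20 average above psei1 in B73.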

How the data were processed

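Each sample's total RNA was turned into biotinylated cRNA by an Affymetrix protocol and hybridised to 1 array, per the labels' protocols. The deposited table holds a linear intensity for every probe set on each array. GCOS 1.4 is named without a role in the submitters' processing notes, and no source used here states the summary algorithm, the scaling or any detection call. The number of arrays limits precision. Groups and replicate numbers came from the sample titles.

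Values were used as deposited because 2% trimmed means differed by 9.72% between arrays, under the limit of 10% set for quantile normalization. Of 17621 probe sets other than the 113 controls, 12414 passed a filter of 20% of the trimmed mean in 3 or more arrays. Their log2(signal + 16) values went into a limma 3.58.1 fit (R 4.3.3) of all 9 arrays, with a mean for each line and eBayes with an intensity trend. Its two-sided p-values were adjusted by Benjamini-Hochberg across those probe sets. The fit was first tested on simulated data. A bound sets the brighter line's mean against the higher of the dim signal and the background level in each array. Figures used matplotlib 3.10.9.

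The platform annotation gives 1 symbol for 1452 probe sets and none for 16168, and 1377 matched the RefSeq gene table (assembly Zm-B73-REFERENCE-NAM-5.0), which served for names only. That annotation holds no gene titles, so the lists rest on symbols and synonyms. The members and lists were chosen with earlier results of these data known. Named were all list genes, with values for called ones, and the 5 named genes of smallest root mean square difference from the brightest probe set of each member. Genes without a call are given by their signals, and see2a was named after its values were seen. Same-numbered arrays of different lines had deviations from line means that correlated between -0.23 and 0.14, so replicate numbers were not taken as pairs. Alternatives varied the pseudocount, filter, scaling, trend, block, lines fitted, the pair of sh1 replicates 2 and 3, and each array left out.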

Additional observations from a re-analysis of the deposited data

How the results depend on the processing

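All 13 differences of psei1 and cpi2 probe sets measured above background kept their sign under each alternative (190 values). The 1 that moved by more than the spread between replicates was Zm.14272.5.S1_x_at in ae wx against sh1, 2.79 with a pseudocount of 64, as a larger pseudocount compresses low signals by construction. With the replicate block, probe sets called in ae wx against B73 numbered 3399 higher and 2806 lower, and among the brightest probe sets of the list genes, the ones refitted with the block, it changed no call except that of mir3 in ae wx against B73 (adjusted p = 0.0626). Leaving out 1 array moved Zm.14272.2.A1_at in sh1 against B73 between -2.94 and -2.65. The counts over the 10 list genes moved more. In ae wx against B73, the genes called lower were 1 with quantile normalization, 1 with only the 2 lines compared, and 1 to 3 with 1 array left out (1 without ae wx replicate 1 or 2 or B73 replicate 1 or 2). In sh1 against B73 they were 2 with median centring and 1 to 3 with 1 array left out (3 without B73 replicate 3). With every probe set counted, 6 were higher in ae wx against B73, 4 higher and 2 lower in sh1 against B73, and 4 higher in ae wx against sh1. In ae wx against B73, each fall to 1 was cc3 losing its call, except with quantile normalization, where see2b did not pass the filter. In sh1 against B73, cc3 gained a call with median centring. The sets added by counting every probe set were of ccp2 and mir3. Why calls changed was not tested. With sh1 replicates 2 and 3, the most alike pair (r = 0.998 across probe sets), averaged as 1 sample, every psei1 and cpi2 difference moved by less than the spread between replicates. The order of ae wx above B73 above sh1 held for 2.46% of probe sets with quantile normalization and 2.51% with median centring, and at least 4 of the 5 genes most like each member were kept, both in alternatives chosen after seeing the data. Signal near background limits Zm.14272.3.S1_at in sh1.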
